A study of Homo sapiens with 8 samples.

Results

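The 451 genes described here are the protein-coding genes of human chromosome 5 (GRCh38 positions, GENCODE annotation) whose mean level over 8 libraries was at least 4 CPM, that is, read counts scaled to a common library size. They were drawn from the 878 protein-coding genes of chromosome 5 in a table of 58206 genes. Of the 451, 68 started on the short arm, before 48 Mb, out of 153 there, and 383 started on the long arm, out of 725. All 451 passed the expression filter that left 14289 genes for testing, so no member was lost to it. Of the 427 genes not kept, 61 were tested at a level under 4 CPM, 366 were not tested, and 139 of those 427 had 0 counts in every library. Chromosome 5 was selected on these same libraries, because its genes had stood out as higher in one group. Its fold changes and counts are therefore given as a description, without a test, and cannot serve as evidence for a regional change.

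The cells were Alexander1, an established human hepatocellular carcinoma line whose AXIN1 protein lacks the region that binds GSK3, which leaves Wnt signalling switched on without a ligand. The 4 parental libraries came from this line with its own AXIN1. The other 4 libraries came from a derivative to which an Axin1 gene on a plasmid from Addgene had been added with a VSVG retrovirus, followed by clonal selection in hygromycin B. That treatment is written on all 8 records, and the genotype labels, wt (Axin1 -) and Axin1+, tell the groups apart. Both groups share the same line, the same culture conditions and the same mutated endogenous AXIN1. The labels mention clonal selection but not how many clones the 4 derivative libraries represent, and a line grown from 1 clone carries every other difference of that clone with it. Nothing in the labels says whether the libraries of a group came from separate cultures, so any p-value measures only the spread between these libraries, which may be technical.

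AXIN1 counts did not separate the groups in the labelled direction. AXIN1, the scaffold of the beta-catenin destruction complex, stood at 55.27, 52.81, 47.39 and 54.17 CPM in the parental libraries and at 47.60, 48.05, 48.24 and 37.71 CPM in the derivative libraries. The log2 difference was -0.21 (SE 0.12). Whether the table counts transcripts of the added gene is not given in the sources used here, so the derivative libraries are called restored-labelled throughout.

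Chromosome 5 carries genes of many unrelated pathways, so its members share an address more than a function. The long arm holds APC, the scaffold that works beside AXIN1 in marking beta-catenin for destruction, together with the casein kinase gene CSNK1A1 and the transcription factor gene TCF7. The short arm holds TERT and a run of cytokine receptor genes. RNA counts are no direct measure of how many copies of a chromosome segment the cells hold, and copy number was not tested here.

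Promoter sequence is shown for 4 long-arm members: IQGAP2, which had the highest fold change, PCSK1, which had the lowest, and ERAP2 and ARHGAP26. ERAP2 and ARHGAP26 were picked because they were called higher and carry the short core of the TCF/LEF site through which beta-catenin acts. Each sequence is the 250 bases before the RefSeq start (GRCh38.p14), written 5′ to 3′ on the gene's own strand, with capitals marking CTTTGAT or its reverse complement. IQGAP2 lies on the plus strand (chr5:76403035-76403284), PCSK1 on the minus strand (chr5:96433249-96433498), ERAP2 on the plus strand (chr5:96875734-96875983) and ARHGAP26 on the plus strand (chr5:142770127-142770376).
IQGAP2: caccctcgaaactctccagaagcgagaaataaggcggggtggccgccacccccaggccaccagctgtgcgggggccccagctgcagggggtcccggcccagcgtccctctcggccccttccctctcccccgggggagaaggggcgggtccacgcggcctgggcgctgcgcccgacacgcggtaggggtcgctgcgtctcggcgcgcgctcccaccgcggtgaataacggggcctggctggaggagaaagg
PCSK1: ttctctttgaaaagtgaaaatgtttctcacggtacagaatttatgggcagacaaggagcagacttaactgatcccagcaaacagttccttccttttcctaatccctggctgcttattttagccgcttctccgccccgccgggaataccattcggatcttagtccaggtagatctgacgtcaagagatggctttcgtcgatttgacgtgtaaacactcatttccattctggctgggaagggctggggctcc
ERAP2: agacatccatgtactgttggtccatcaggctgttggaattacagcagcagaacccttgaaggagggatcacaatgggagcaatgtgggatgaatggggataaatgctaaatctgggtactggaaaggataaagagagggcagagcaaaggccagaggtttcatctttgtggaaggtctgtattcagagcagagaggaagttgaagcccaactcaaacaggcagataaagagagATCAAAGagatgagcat
ARHGAP26: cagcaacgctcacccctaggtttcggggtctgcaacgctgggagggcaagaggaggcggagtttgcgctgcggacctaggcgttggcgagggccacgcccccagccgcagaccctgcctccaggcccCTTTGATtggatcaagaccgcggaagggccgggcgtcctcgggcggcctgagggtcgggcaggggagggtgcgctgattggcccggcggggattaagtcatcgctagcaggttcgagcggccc
The core began 17 bases before the start in ERAP2 and 123 bases before it in ARHGAP26, and the IQGAP2 and PCSK1 stretches held none.

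RefSeq promoter windows, each 300 bases long from 250 before to 50 after the start, were matched for 414 of the 451 members. The core CTTTGAT, searched on both strands, was in 0 of 59 short-arm windows, in 6 of 355 long-arm windows (1.69%) and in 721 of all 27305 windows (2.64%). The 6 long-arm genes were ERAP2, MACIR, LYRM7, FAM53C, ARHGAP26 and PWWP2A. ERAP2, LYRM7 and ARHGAP26 were called higher, while MACIR, FAM53C and PWWP2A were not called, at log2 differences of 0.08, 0.30 and 0.53. Among long-arm windows it was in 3 of 150 for genes called higher (2%) and in 3 of 197 for genes not called (1.52%). The E-box CACGTG, a site read by MYC and other helix-loop-helix factors, was in 7 short-arm windows (11.9%), in 35 long-arm windows (9.86%) and in 7.43% of all windows. Neither set of letters overlaps the other, and a match describes the letters in the window only.

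Sequencing depth ran from 11232951 to 15263761 counts in the parental libraries and from 12372436 to 26400782 in the restored-labelled ones. Hepatocyte genes were present in both groups: the summed level of 8 markers was 22512 to 26537 CPM in parental and 15252 to 18150 CPM in restored-labelled libraries. That sum is mostly SERPINA1 (14811 to 17644 and 8943 to 11616 CPM) and does not describe every marker. HNF4A, the hepatocyte transcription factor, had 228 to 367 and 256 to 384 CPM, while ALB had 46.7 to 208 CPM in parental and 13.8, 445, 681 and 598 CPM in restored-labelled libraries, with TTR at 1.42 to 5.35 and 4.81 to 21.2 CPM. The 5 fibroblast markers summed to at most 4.59 CPM and the 3 blood markers to at most 0.712 CPM, with CD3E at 0 in every library. The 3 endothelial markers summed to 4.54 to 6.77 CPM in parental and 34.1 to 58.5 CPM in restored-labelled libraries. Nearly all of that was PECAM1, an adhesion receptor gene on another chromosome, while VWF and CDH5, which define endothelial cells, had at most 6 counts in any library. In bulk RNA, fewer cells of a kind and less RNA per cell cannot be told apart. Restored-labelled replicate 1 lay apart from the other restored-labelled libraries for several members named below, and where that is said of a member its fold change is also given without that library.

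Long-arm genes were higher in the restored-labelled libraries as a broad and shallow shift, while the short-arm median stayed near 0. Fold changes compare restored-labelled with parental libraries on the log2 scale and come from a quasi-likelihood fit (edgeR) over all 14289 tested genes. The 383 long-arm members had a median of 0.46 with quartiles of 0.25 and 0.73, a ratio of 1.38 at the median. The 68 short-arm members had a median of 0.06 with quartiles of -0.15 and 0.34, and that median was -0.0073 once GC content and gene length were fitted. The short-arm median was lower than the long-arm median by a difference of -0.40. Over all tested genes the median was 0.0026, and over the 10120 protein-coding genes of at least 4 CPM on other chromosomes it was -0.0044.

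The long-arm shift was carried by most of its genes and not by a few large values. Of 383 long-arm members, 338 had a fold change above 0 (88.3%), against 50.2% of all tested genes and 49.5% of coding genes of at least 4 CPM elsewhere. Of those 338, 298 lay between 0 and 1 and 40 reached at least 1, while 45 members were below 0. On the short arm 43 of 68 were above 0 (63.2%), of which 37 lay between 0 and 1. In the plot of cumulative shares the short-arm line runs near that of the other chromosomes and the long-arm line runs to the right of both at fold changes from 0 to 0.5.

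**Figure D1:**
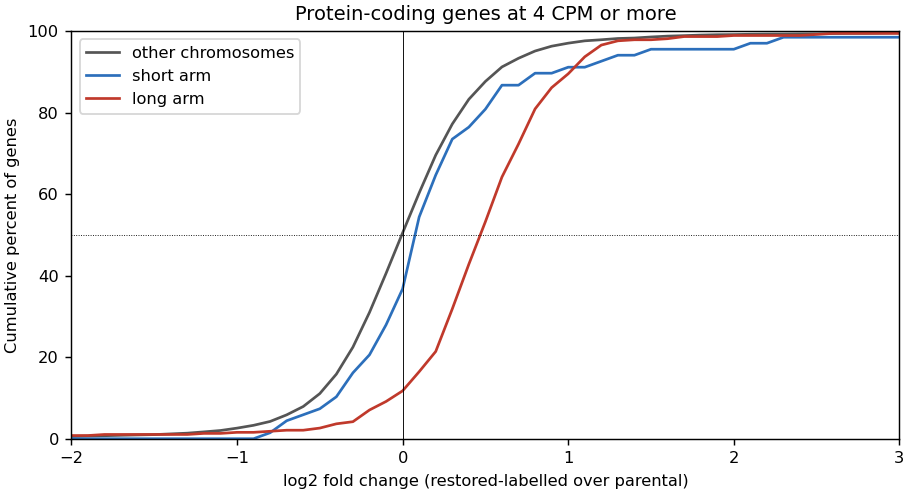
Cumulative percent of protein-coding genes of at least 4 CPM (y axis) by log2 ratio of restored-labelled to parental level (x axis), for 68 short-arm genes (blue), 383 long-arm genes (red) and 10120 genes of other chromosomes (grey), in steps of 0.1. The lines cross 50% near their medians of 0.06, 0.46 and -0.0044.

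Counts of genes past an adjusted p of 0.05 (Benjamini-Hochberg over all tested genes) showed the same arms. Among all tested genes 10.4% were called higher and 8.77% lower, and among protein-coding genes of at least 4 CPM on other chromosomes 9.62% and 9.41%. On the long arm 157 members were called higher (41.0%) and 8 lower (2.09%). On the short arm 9 were called higher (13.2%) and 1 lower (1.47%). Nothing is read from these shares, since the same contrast chose the chromosome. The long-arm count was 88 without restored-labelled replicate 4, 93 without parental replicate 2 and 105 without restored-labelled replicate 3. Over all tested genes the same omissions left 797, 840 and 871 genes higher, against 1485 with every library.

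In 169 long-arm members every restored-labelled library was above every parental library (44.1%), against 12.7% of all tested genes, and in 9 every one was below, against 11.2%. The shares for coding genes of at least 4 CPM on other chromosomes were 11.9% and 12.2%. The short-arm counts were 10 and 3. Several members overlap exons of another tested gene, and strand-specific counting is not stated, so reads of such pairs may be shared. Leaving them out, 276 long-arm and 54 short-arm members had medians of 0.49 and 0.07.

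Library by library, the long arm separated the groups and the short arm did not. Each library's value is the median over members of its log2 CPM minus the parental mean, a parental library being set against the other 3. For the long arm the parental libraries stood at -0.0043, -0.03, 0.05 and -0.02, and the restored-labelled ones at 0.39, 0.44, 0.47 and 0.62. Every restored-labelled library was thus above every parental one, with replicate 4 highest, and their mean was 0.48 (SD 0.10, n = 4). For the short arm the parental libraries stood at -0.22, 0.08, 0.13 and 0.07 and the restored-labelled ones at -0.0145, -0.0006, 0.07 and 0.19, so the groups overlapped. Genes of other chromosomes gave -0.08 to 0.03 in parental and -0.0145 to 0.02 in restored-labelled libraries.

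**Figure D2:**
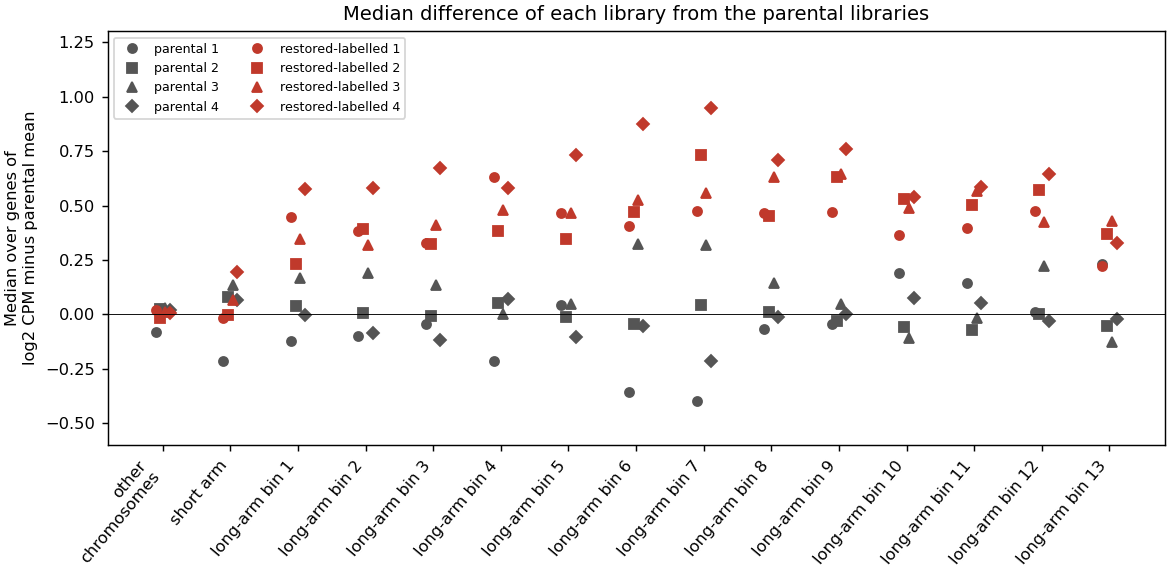
Median over genes of log2 CPM minus the parental mean (y axis) for each of 8 libraries (grey, parental; red, restored-labelled; marker shape, replicate) in 10120 genes of other chromosomes, the short arm and 13 consecutive long-arm bins, the first from 48 to 60 Mb, then 10 Mb each, the last from 170 Mb to the end. The red points lie above all grey points in 12 of the 13 bins, and those of the last bin overlap, at 0.22 to 0.43 against -0.13 to 0.23.

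The arm totals moved likewise. Long-arm members took 3.00, 2.79, 2.89 and 2.84% of all counts in the parental libraries and 3.58, 3.82, 3.92 and 4.15% in the restored-labelled libraries, a mean of 2.88% ± 0.0889 (SD, n = 4) against 3.87% ± 0.234 (SD, n = 4). Short-arm members took 0.445% ± 0.0174 and 0.450% ± 0.0185 (SD, n = 4 each). RPL37, a large-subunit ribosomal protein gene, was the most abundant short-arm member, and without it the short-arm shares were 0.363% ± 0.0469 and 0.398% ± 0.0241. The long-arm groups did not overlap and the short-arm groups did.

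**Figure D3:**
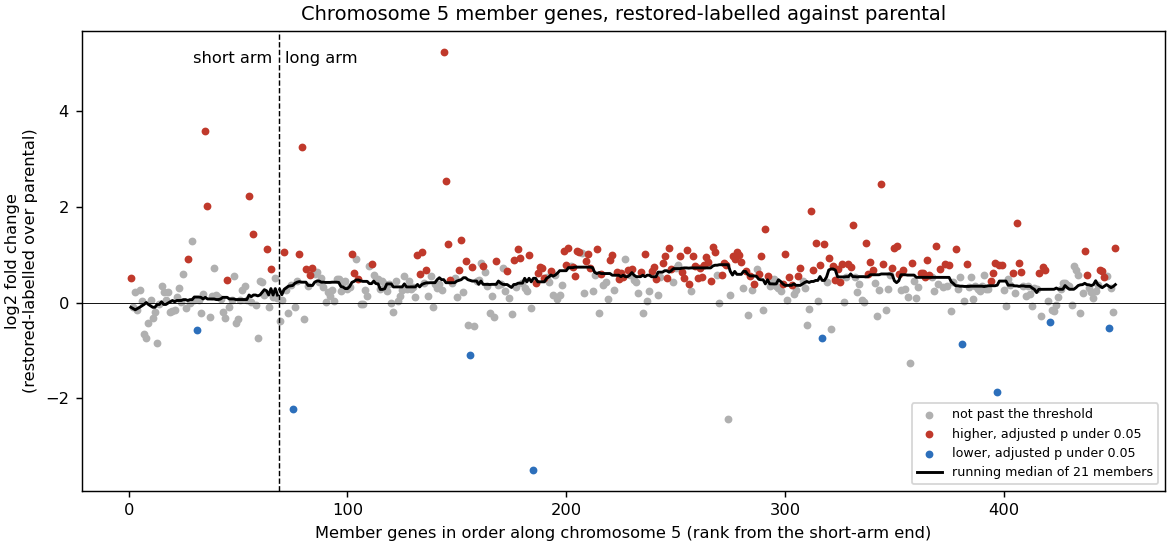
Log2 ratio of restored-labelled to parental level (y axis) of the 451 members in their order along the chromosome (x axis, rank from the short-arm end), with genes called higher in red, lower in blue and not called in grey; the dashed line marks the centromere and the black line is the running median of 21 members. The running median lies between -0.15 and 0.29 on the short arm and between 0.16 and 0.79 on the long arm.

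Along the long arm no bin had a median at or below 0, and the middle of the arm had the highest values. The first 5 bins, from 48 to 100 Mb, had medians of 0.39 (22 members), 0.39 (32), 0.41 (38), 0.38 (13) and 0.43 (19). The next 4, from 100 to 140 Mb, had medians of 0.62 (10 members), 0.67 (20), 0.56 (16) and 0.66 (55). Parental library medians spread most at 100 to 110 Mb (-0.35 to 0.32) and 110 to 120 Mb (-0.40 to 0.32). The restored-labelled ones there ran from 0.41 to 0.88 and from 0.47 to 0.95. The differences between bins were not tested. The last 4, from 140 Mb to the end, had medians of 0.48 (39 members), 0.53 (33), 0.48 (14) and 0.34 (72). The bin from 130 to 140 Mb had the highest share of calls, 39 of 55 higher (70.9%) and 0 lower. The bin from 60 to 70 Mb had the lowest, 4 of 32 higher (12.5%) and 0 lower. That lowest share lay near the 10.4% of all tested genes called higher, beside 8.77% called lower. In 5 Mb steps the medians ran from 0.16 (48 to 55 Mb, 10 members, and 100 to 105 Mb, 5 members) to 0.94 (110 to 115 Mb, 8 members), so bins of few genes varied most.

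The short arm stayed below every wider long-arm bin but came about level with the lowest narrower ones. Among the wider long-arm bins the lowest median was 0.34 (170 Mb to the end). Among the narrower ones it was 0.16 (48 to 55 Mb and 100 to 105 Mb). The short arm reached 0.16 in the bin next to the centromere. Its bins had medians of -0.01 (0 to 10 Mb, 24 members), 0.12 (10 to 20 Mb, 12 members), 0.08 (30 to 40 Mb, 21 members) and 0.16 (40 to 48 Mb, 11 members). The 2 members nearest the centromere on the short arm, NNT, a mitochondrial transhydrogenase gene, and MRPS30, a mitochondrial ribosome gene, had fold changes of 0.52 (SE 0.30) and 0.09 (SE 0.18). The 2 nearest on the long arm, PARP8, an ADP-ribosyltransferase gene, and ISL1, a homeobox gene, had -0.39 (SE 0.15) and 0.06 (SE 0.27). None of these 4 was called, and their values do not place a boundary at the centromere.

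Whole chromosomes are set beside the 2 arms of chromosome 5 here, an unlike comparison, since the others were not split into arms and the long arm was chosen for its rise. Medians of the other chromosomes ran from -0.18 (chromosome 13, 177 genes) to 0.29 (chromosome 21, 102 genes), with 0.21 for chromosome 19 (780 genes), beside 0.43 for chromosome 5 as a whole. Among genes of chromosome 21, 86 of 102 were above 0 (84.3%), close to the 84.5% of all chromosome 5 members. Chromosome-wide medians away from 0 were therefore not limited to chromosome 5, and the difference between them was not tested.

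**Figure D4:**
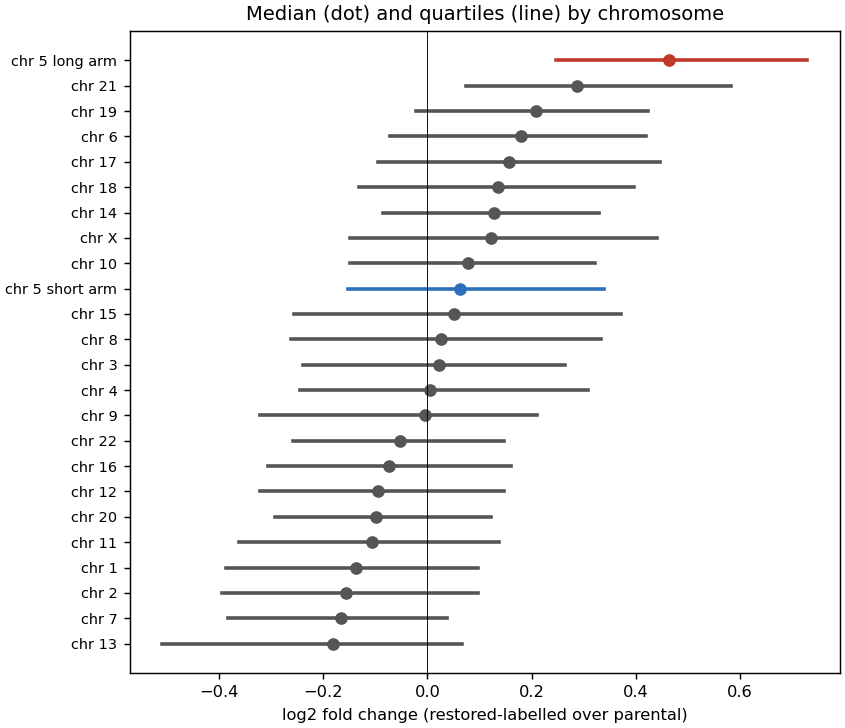
Median (dot) and quartiles (line) of the log2 ratio of restored-labelled to parental level (x axis) for protein-coding genes of at least 4 CPM on each chromosome, with chromosome 5 split into its short arm (blue, 0.06) and long arm (red, 0.46). The dots of the other chromosomes lie between -0.18 and 0.29.

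The size of the shift varied with the genes' own properties. In 3 equal groups of long-arm members by level, the medians were 0.53, 0.54 and 0.37 from low to high. By GC content they were 0.58, 0.52 and 0.34, and by exonic length 0.39, 0.50 and 0.53. Genes of other chromosomes in the same ranges had medians of 0.09, -0.0041 and -0.06 by level, and of 0.13, 0.05 and -0.08 by GC content. By exonic length they had -0.03, 0.02 and 0.0046. The most abundant and the most GC-rich genes thus had the lowest median on other chromosomes too, and every range there was lower than on the long arm. With a fitted offset for GC content and length the long-arm median was 0.39 and 147 members were called higher. With every library thinned to 11232951 counts it was 0.46.

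Genes that the member rule left out gave mixed values. The 45 tested long-arm noncoding RNA genes had a median of 0.50, with 6 called higher (13.3%) and 0 lower. The 46 tested long-arm coding genes under 4 CPM had a median of 0.54, with 12 higher (26.1%) and 4 lower (8.70%). Of all tested genes 10.4% were called higher and 8.77% lower. Some of the 46 passed the expression filter only through the group where they were high, so their values are no support for the shift. MSX2, for example, had 0 CPM in parental and 1.53 CPM in restored-labelled libraries. The 16 long-arm pseudogenes, whose reads may come from parent genes elsewhere, had -0.15, with 8 above 0, 2 called higher and 1 lower. In the short arm the 18 noncoding RNA genes had a median of 0.03, the 15 low coding genes -0.34 and the 7 pseudogenes 0.07. At the limit itself, PROB1 and FAM200C (4.05 CPM), just inside, had fold changes of -0.15 and 1.18, and AHRR and C5orf34 (3.94 CPM each), just outside, had -0.80 and -0.41.

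Wnt pathway genes of the long arm lay with the shift. All 8 members of the 11 genes listed were above 0, with 6 called higher and 0 lower, and their median was 0.71 beside 0.46 for the arm and 0.0026 for all tested genes. The shares above 0 were 88.3% in the arm and 50.2% of all tested genes, and the shares called higher 41.0% and 10.4%. The list and its values were known from earlier work on these libraries, so this count is a description. The 6 called genes were APC, CSNK1A1, CSNK1G3, CTNNA1, FBXW11 and PPP2CA. TCF7 and CXXC5, a transcription factor of the pathway and an inhibitor of it, were not called.

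APC (ENSG00000134982, chr5:112707498-112846239, plus strand) stood at 7.30, 10.4, 11.7 and 12.5 CPM in the parental and 19.5, 19.6, 20.1 and 28.1 CPM in the restored-labelled libraries. Every restored-labelled library was above every parental one, at 2.08 times the mean and a log2 difference of 1.06 (SE 0.20). PPP2CA, the catalytic subunit of protein phosphatase 2A, which removes phosphate from beta-catenin complex proteins, had 73.8, 96.1, 102 and 89.9 CPM and then 129.7, 150.2, 147 and 187 CPM. Those groups did not overlap either, and the log2 difference was 0.76 (SE 0.15). FBXW11, a substrate receptor of the ubiquitin ligase that takes phosphorylated beta-catenin, rose by 0.80 on the log2 scale (SE 0.18), with 19.8 to 29.8 CPM in parental and 33.5 to 52.9 CPM in restored-labelled libraries.

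CSNK1A1, the kinase that places the priming phosphate on beta-catenin, rose less evenly. It had 19.8, 27.3, 29.3 and 38.4 CPM in the parental and 60.6, 31.6, 46.8 and 53.5 CPM in the restored-labelled libraries, so the groups overlapped, and its exons overlap those of another tested gene. The log2 difference was 0.75 (SE 0.23), and the call was lost in 9 of 17 alternative analyses, among them those without parental replicate 1, 2 or 3 or restored-labelled replicate 1, 3 or 4. CSNK1G3, a casein kinase that acts on the Wnt receptor LRP6, rose by 0.67 (SE 0.19). CTNNA1, alpha-catenin, which links beta-catenin to actin at junctions, had 320.2 ± 18.2 CPM in parental and 419 ± 42.1 CPM (SD, n = 4 each) in restored-labelled libraries. Its log2 difference of 0.39 (SE 0.12) was called, and that call was lost in 11 of 17 alternatives, among them those without parental replicate 2, 3 or 4 or restored-labelled replicate 1, 3 or 4. TCF7, whose exons overlap those of SKP1, had a log2 difference of 0.24 (SE 0.19), and CXXC5 one of 0.34 (SE 0.12).

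On the short arm 2 of the 3 listed Wnt genes were members. DAB2, an endocytic adaptor that binds AXIN1 and dampens Wnt signalling, rose from 31.5, 19.0, 24.3 and 14.7 CPM to 41.4, 67.6, 64.1 and 68.6 CPM. The groups did not overlap, though restored-labelled replicate 1 was the lowest of its group, and the log2 difference was 1.43 (SE 0.24), or 1.58 without that library. NKD2, an inhibitor that acts on Dishevelled, had a log2 difference of -0.32 (SE 0.21) and was not called.

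**Figure D5:**
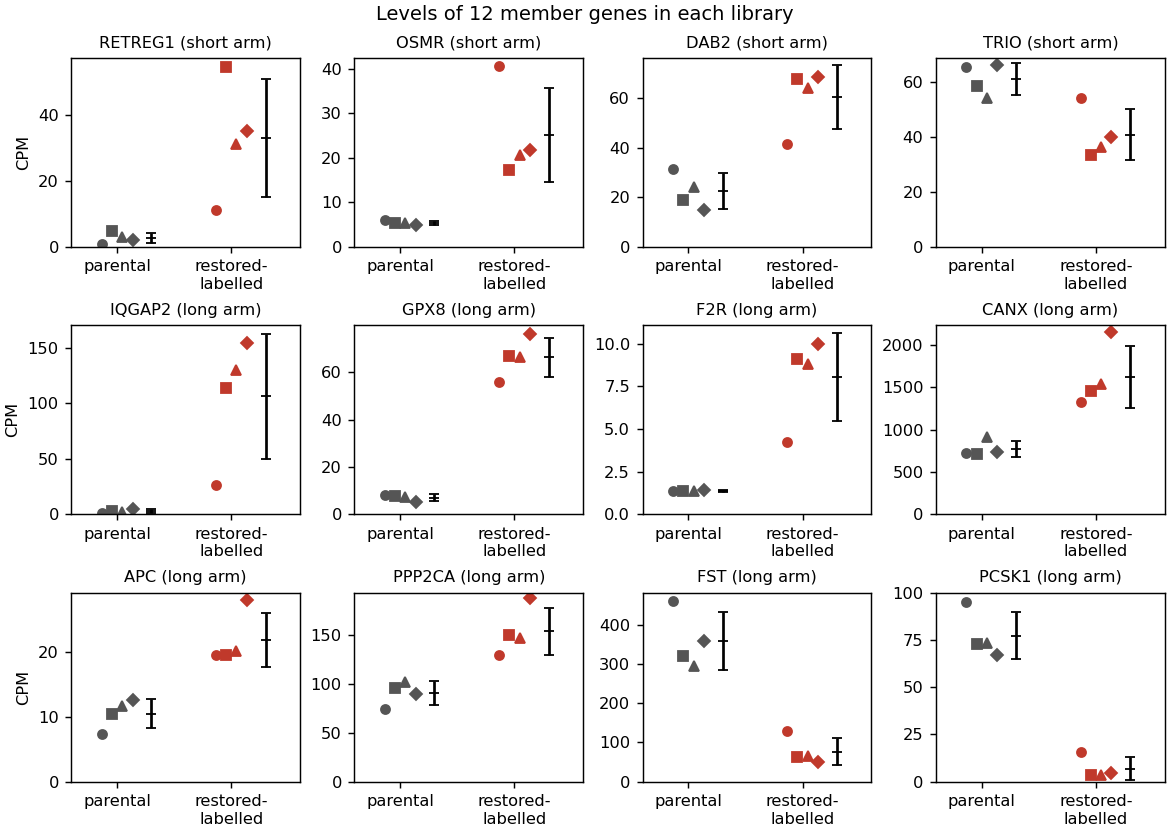
CPM (y axis, from 0) of 12 members in each library, parental in grey and restored-labelled in red, with marker shape for the replicate (circle, square, triangle and diamond for 1 to 4) and bars for the mean ± SD (n = 4). APC, PPP2CA and CANX rise by 2.08, 1.70 and 2.11 times in the mean, while IQGAP2 and PCSK1 move much further, in opposite directions, with restored-labelled replicate 1 nearest to the parental level.

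Among adhesion, cytoskeleton and endocytosis genes of the long arm, 14 of 16 were members, 6 were called higher and 1 lower, and the median was 0.51. In the arm 41.0% were called higher with a median of 0.46, and of all tested genes 10.4% higher and 8.77% lower with a median of 0.0026, so the list lay near the level of its arm. ITGA1, the alpha-1 chain of a collagen receptor, rose from 27.0, 37.8, 38.5 and 37.9 CPM to 63.2, 67.4, 72.0 and 92.3 CPM, with no overlap and a log2 difference of 1.06 (SE 0.16). ITGA1 and PELO overlap at their exons, so reads of the pair may be shared. ITGA2, its neighbour and the alpha-2 chain of another collagen receptor, had 14.95, 42.86, 35.81 and 26.98 CPM in parental and 48.7, 17.0, 15.3 and 21.7 CPM in restored-labelled libraries. Its groups overlapped fully, with restored-labelled replicate 1 highest of all 8. The log2 difference was -0.23 (SE 0.39), and -0.74 (SE 0.31) without that library, not called in either case, with values from -0.74 to -0.0097 over 17 alternatives.

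ARHGAP26, a GTPase-activating protein for RHOA and CDC42 that acts in endocytosis, rose from 14.4 ± 3.59 to 33.7 ± 1.77 CPM (SD, n = 4 each), a log2 difference of 1.23 (SE 0.17). CLINT1, SNX2, SNX24 and LMAN2, which serve vesicle traffic, were called higher at 0.62, 0.48, 0.63 and 0.63. The SNX2 call was lost without restored-labelled replicate 1, at 0.50 (SE 0.17). The CLINT1 call was lost in 8 of 17 alternatives, among them every omission of 1 library but that of restored-labelled replicate 2, and the LMAN2 call in 4, among them those without parental replicate 2 or 3 or restored-labelled replicate 3. DBN1, drebrin, an actin-binding protein, fell by 0.41 on the log2 scale (SE 0.11). Among short-arm members TRIO, a guanine exchange factor for RAC1 and RHOA, was the only member called lower: 65.3, 58.4, 53.9 and 66.1 CPM became 53.9, 33.2, 36.2 and 39.7 CPM, a log2 difference of -0.58 (SE 0.16), or -0.74 without restored-labelled replicate 1. That call was lost with total counts only and without parental replicate 2 or 4 or restored-labelled replicate 2, 3 or 4. RAI14, an actin-associated gene of the same arm, was not called at -0.33 (SE 0.15).

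Of 19 cell-cycle and DNA-maintenance genes listed on the long arm, 18 were members, and all 18 had a fold change above 0, with a median of 0.40, 5 called higher and 0 lower. The arm as a whole had 88.3% above 0 and 41.0% called higher, and all tested genes 50.2% and 10.4%. The 5 were CENPK, a kinetochore gene (1.02), KIF20A, a mitotic kinesin gene (1.05), CDC25C, the phosphatase that activates CDK1 (0.85), CDC23, a subunit of the anaphase-promoting complex (0.99), and PTTG1, securin (0.70). CDC23 and KIF20A overlap each other at their exons, and the PTTG1 call was lost without parental replicate 2 or restored-labelled replicate 3. Without restored-labelled replicate 1 the KIF20A call was lost, at 0.95 (SE 0.35). CCNB1, cyclin B1, had 100.4 ± 33.3 CPM in parental and 149 ± 22.9 CPM in restored-labelled libraries (SD, n = 4 each), and was not called at 0.57 (SE 0.22).

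Of 4 such genes on the short arm, RAD1, a part of the DNA-damage clamp, was called higher at 0.47 (SE 0.14), a call lost in 8 of 17 alternatives, among them those without parental replicate 2 or 4 or restored-labelled replicate 2, 3 or 4, and its exons overlap those of BRIX1. TERT, the catalytic part of telomerase, had a log2 difference of -0.83 (SE 0.28), SKP2, a cell-cycle ubiquitin ligase gene, -0.42 (SE 0.18), and NIPBL, the cohesin loader, 0.04 (SE 0.13). None of these 3 was called.

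Of 9 mitochondrial long-arm members, 8 were above 0 and 1 was called higher, with a median of 0.29 beside 0.46 for the arm, 0.37 for its most abundant members and 0.0026 for all tested genes. The shares above 0 and called higher were 88.3% and 41.0% in the arm and 50.2% and 10.4% of all tested genes. The called gene was NDUFA2, a complex I subunit, at 63.3 ± 10.9 CPM in parental and 128 ± 34.7 CPM in restored-labelled libraries (SD, n = 4 each), with exons that overlap TMCO6 and IK. HSPA9, the main mitochondrial chaperone and the most abundant of the list, had a log2 difference of 0.26 (SE 0.13) and was not called. The 5 short-arm members, among them SDHA of complex II at -0.10 (SE 0.17), had a median of 0.09 and 0 calls.

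Of 11 translation genes on the long arm, 8 were above 0 and 3 were called higher, with a median of 0.12, beside the same medians and shares. The difference of either list from the arm was not tested. The 3 were LARS1, leucyl-tRNA synthetase (0.46), PAIP2, a regulator of poly(A)-binding protein (0.59), and ETF1, the release factor (0.56), and the LARS1 call was lost in 7 of 17 alternatives, among them those without parental replicate 2, 3 or 4 or restored-labelled replicate 3 or 4. NPM1, nucleophosmin, which works in ribosome assembly, stood at 1413 ± 103 CPM in parental and 1439 ± 55.7 CPM in restored-labelled libraries (SD, n = 4 each). Its log2 difference was 0.03 (SE 0.12), and its groups overlapped. Per kilobase of exon it had the highest parental level of the long arm, 369 CPM, ahead of SQSTM1, an autophagy receptor gene, at 319 CPM.

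The ribosome genes of the long arm varied widely within both groups. RPS14, a small-subunit protein gene, had 1336, 775, 679.9 and 586 CPM in parental and 661, 1175, 924 and 754 CPM in restored-labelled libraries, and RPS23 and RACK1, both genes of the small subunit, had the same high library in each group, parental replicate 1 and restored-labelled replicate 2. Their log2 differences were 0.06 (SE 0.26), -0.29 (SE 0.30) and -0.19 (SE 0.26), and none was called. RPL37 on the short arm had -0.74 (SE 0.28) and was not called. The 78 cytosolic ribosomal protein genes of other chromosomes had a median of -0.39. The 5 short-arm translation genes had a median of -0.17 and 0 calls.

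Liver, sterol and secreted-protein genes held both high and low values. Of 15 listed on the long arm, 13 were members, 7 were called higher and 1 lower, with a median of 0.61. The arm's shares were 41.0% higher and 2.09% lower with a median of 0.46, and those of all tested genes 10.4% and 8.77% with a median of 0.0026. CANX, calnexin, a chaperone of the endoplasmic reticulum, rose from 719, 709.7, 909.7 and 739 CPM to 1331, 1459, 1536 and 2159 CPM, with no overlap and a log2 difference of 1.08 (SE 0.18). SAR1B, a GTPase needed for export of lipoprotein from the endoplasmic reticulum, had 0.78, and the coagulation factor gene F12 had 0.74. The aminopeptidase genes ERAP1, ERAP2 and LNPEP, which lie next to each other, had 0.61, 0.75 and 0.73. Without restored-labelled replicate 1 the ERAP1 call was lost, at 0.64 (SE 0.21).

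BHMT2, a methyltransferase of methionine metabolism, fell from 235, 181, 187 and 152 CPM to 123, 81.9, 75.3 and 73.7 CPM, a log2 difference of -1.09 (SE 0.19), or -1.29 without restored-labelled replicate 1. The hepatocyte markers given above differed between the groups in both directions, and their part in these values was not tested. FGFR4, the liver receptor for FGF19, had 0.35 (SE 0.17) and was not called. In the short arm 3 of 10 listed genes were members and 2 were called higher. The shares called higher were 13.2% of short-arm members and 10.4% of all tested genes, and so few members allow no reading. HMGCS1, an enzyme of cholesterol synthesis, rose from 31.2, 51.7, 64.1 and 45.6 CPM to 105, 103, 92.2 and 116 CPM, a log2 difference of 1.11 (SE 0.19). OSMR, the oncostatin M receptor, rose from 6.05, 5.42, 5.26 and 4.94 CPM to 40.6, 17.2, 20.6 and 21.7 CPM, a log2 difference of 2.21 (SE 0.27), or 1.88 without restored-labelled replicate 1.

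The members that moved furthest did so well beyond the regional level. The parental means of IQGAP2, F2R, RETREG1 and BASP1 were under 4 CPM, so these genes were members only through their restored-labelled level. CPLX2 and KLHL3, which were lower in that group, were members only through their parental level. IQGAP2 (ENSG00000145703, chr5:76403249-76708132, plus strand), a scaffold of the IQGAP family expressed in liver, had 1.42, 2.78, 2.14 and 4.79 CPM in the parental and 26.1, 113, 130.4 and 155 CPM in the restored-labelled libraries. All restored-labelled libraries were above all parental ones, replicate 1 far below its group, and the log2 difference was 5.22 (SE 0.55), or 5.55 without that library. GPX8, a peroxidase of the endoplasmic reticulum, rose from 8.10, 7.51, 7.22 and 5.01 CPM to 56.0, 67.0, 66.3 and 76.2 CPM, evenly over libraries, a log2 difference of 3.25 (SE 0.18).

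F2R, the thrombin receptor, stands next to IQGAP2 and rose from 1.33 to 1.43 CPM to 4.23 to 9.99 CPM, a log2 difference of 2.55 (SE 0.30), or 2.76 without restored-labelled replicate 1, the lowest of its group. The next gene, F2RL1, a related protease-activated receptor, rose by 1.23 (SE 0.20). These 3 genes in a row were all called higher, while POC5 and POLK before them were not called, at 0.27 and 0.40, and AGGF1 after them was called at 0.48. The run stood above genes on both of its sides, but it was picked around the long-arm member with the highest fold change. IQGAP2 and F2R were also members only through their restored-labelled level. Of all long-arm members 41.0% were called higher, so the run is a description only.

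The short-arm member with the highest fold change was RETREG1, an endoplasmic reticulum autophagy receptor. It had 0.890, 4.74, 3.03 and 2.08 CPM in parental and 11.05, 54.65, 31.14 and 35.21 CPM in restored-labelled libraries, a log2 difference of 3.59 (SE 0.52), or 3.88 without restored-labelled replicate 1. BASP1, a membrane-associated signalling protein and the next coding gene tested, starts 593 kb away from it and was called at 2.02 (SE 0.53). The BASP1 groups overlapped, since restored-labelled replicate 1 was at 1.47 CPM against 7.96 to 12.2 in the other 3. Without that library the difference was 2.37 (SE 0.29), while the call was lost in 6 of 17 alternatives, among them those without parental replicate 2 or 3 or restored-labelled replicate 2, 3 or 4. ZNF622, 22 kb before RETREG1, was not called at 0.17 (SE 0.14). Further along, LIFR (2.20, under 4 CPM), OSMR (2.21) and DAB2 (1.43) were called higher around RICTOR, which had 0.02 (SE 0.20) although its exons overlap those of OSMR.

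The other short-arm members called higher were CMBL (0.92), TMEM267 (0.71), and CCDC127 (0.51). CMBL, a hydrolase that activates prodrugs, had 29.5 CPM in restored-labelled replicate 1 and 52.2 to 67.6 CPM in the other 3, against 22.9 to 29.2 CPM in the parental libraries, and its difference was 1.11 (SE 0.15) without replicate 1.

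Against the direction of the long arm, 8 members were called lower: PCSK1, FST, CPLX2, BHMT2, TLX3, SPRY4, TRIM7 and DBN1. PCSK1, a proprotein convertase that processes hormones, had 95.5, 73.2, 73.8 and 67.3 CPM in the parental and 15.8, 3.38, 3.40 and 4.33 CPM in the restored-labelled libraries. No library overlapped, restored-labelled replicate 1 was the highest of its group, and the log2 difference was -3.49 (SE 0.46), or -4.37 without that library. On its sides ELL2 had -0.12 and was not called, and CAST and ERAP1, which overlap each other, were called higher at 0.40 and 0.61. Without restored-labelled replicate 1 neither CAST nor ERAP1 was called, at 0.34 (SE 0.12) and 0.64 (SE 0.21).

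FST, follistatin, which binds activin, fell from 460.3, 320.5, 294 and 359 CPM to 128, 63.3, 64.5 and 50.8 CPM, a log2 difference of -2.23 (SE 0.28), or -2.59 without restored-labelled replicate 1. CPLX2, a regulator of vesicle fusion, had 13.8, 3.05, 4.19 and 4.87 CPM and then 1.83, 1.65, 1.77 and 1.80 CPM. Its parental mean rests in large part on replicate 1, and the log2 difference of -1.86 (SE 0.44) was called in each of 17 alternatives, between -2.10 and -1.19, the latter without that library. Its neighbours SFXN1 and THOC3 were called higher at 0.83 and 0.79. SPRY4, an inhibitor of receptor tyrosine kinase signalling, TLX3, a homeobox gene, and TRIM7, a ubiquitin ligase gene, were called lower at -0.73, -0.86 and -0.53, and TRIM7 at -0.41 without restored-labelled replicate 1, its lowest library. The TLX3 call was lost without that library, at -0.79 (SE 0.27).

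The calls of many members depended on single libraries, restored-labelled replicate 1 among them. Over all tested genes 1583 were called higher without that library, beside 1485 with every library and 797 without restored-labelled replicate 4. CXXC5, for example, was called higher without restored-labelled replicate 1, and several calls given above were lost. KLHL3 and HAVCR1, 2 members not called with all libraries, had much lower fold changes without it. KLHL3, an adaptor of a ubiquitin ligase, had 8.63, 5.35, 8.28 and 12.1 CPM in the parental and 5.49, 0.0826, 0.345 and 0.0390 CPM in the restored-labelled libraries, a log2 difference of -2.42 (SE 0.95) that became -5.71 (SE 0.56), called lower, without replicate 1. HAVCR1, a phosphatidylserine receptor, had 12.4, 9.41, 11.5 and 12.8 CPM and then 14.96, 1.07, 1.18 and 1.37 CPM, a log2 difference of -1.26 (SE 0.73) that became -3.23 (SE 0.23), called lower, without replicate 1. In both genes restored-labelled replicate 1 lay within or beside the parental range and the other 3 lay far below it. KLHL3, HAVCR1, the neighbours of the genes with the largest changes and the promoter examples were named after their values had been seen.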

How the data were processed

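RNA of 8 libraries (4 parental, 4 restored-labelled) was sequenced. The authors deposited raw counts per gene in one table, and no column was without a sample (0). Per the submitters' processing notes, bcl2fastq, fastp 0.23.1, STAR 2.7.4 and GRCh38 were used; the counting program, its annotation and its strand setting are not given in the sources used here, so antisense and overlapping genes may share reads. Gene positions came from GENCODE 29, which held 57943 of 58206 identifiers.

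Counts were tested with edgeR 4.0.16 in R 4.3.3 (filterByExpr with minimum count 10 and minimum total 15, TMM scaling, glmQLFit and glmQLFTest, two-sided, Benjamini-Hochberg adjustment over 14289 genes, threshold 0.05). CPM were computed after TMM scaling, and library medians used log2 CPM with a prior count of 2. The biological coefficient of variation was 0.227, and 3 counts corresponded to 0.108 to 0.267 CPM, counting error only. Arms were split at 48 Mb and bins were 10 Mb wide, by gene start. The scripts were tested on simulated data. Alternatives were DESeq2 1.42.0, limma 3.58.1 (voom), other scalings, no filter, a replicate block, GC content and length, thinning, other limits and leaving out each library; leaving out members with exon overlap was added after the data had been seen. Promoter windows were RefSeq's (GRCh38.p14).

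The members, lists and genes to name were chosen with earlier results of these data known. Named were the members of highest level per arm or bin, the 3 largest and smallest called fold changes per arm, the 3 most abundant of each list, 7 set genes, and the genes nearest 4 CPM and the centromere. Other called members and list members were named after their values were seen. Same-numbered libraries of the groups deviated with correlations of -0.063, 0.007, -0.032 and 0.227, so the numbers were not taken to pair the samples.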

Additional observations from a re-analysis of the deposited data

Results flagged for a closer look

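Of 156 sets of 4 libraries examined (members and medians, in each group), 12 had 1 library whose gap to the nearest other was large for the range of the 4; chance gives about 5% of sets. Parental replicate 1 stood apart for ITGA1 at 27.0 CPM (others 37.8 to 38.5), REEP5 at 263 CPM (others 159 to 173), CPLX2 at 13.8 CPM (others 3.05 to 4.87), SQSTM1 at 2732 CPM (others 2316 to 2374) and the median difference of other chromosomes at -0.0802 (others 0.02 to 0.03). Parental replicate 3 stood apart for CANX at 909.7 CPM (others 709.7 to 739) and for the median difference of the long arm from 160 to 170 Mb at 0.22 (others -0.03 to 0.01). Restored-labelled replicate 1 stood apart for DAB2 at 41.4 CPM (others 64.1 to 68.6), PCSK1 at 15.8 CPM (others 3.38 to 4.33) and TCF7 at 8.43 CPM (others 9.41 to 9.61). Restored-labelled replicate 2 stood apart for NKD2 at 4.21 CPM (others 3.41 to 3.47), and replicate 4 for APC at 28.1 CPM (others 19.5 to 20.1).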

How the results depend on the processing

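The long-arm median stayed between 0.39 and 0.55 over the alternatives (0.39 with GC content and length fitted, 0.55 with total counts only, 0.47 with the replicate block). With the replicate block 120 long-arm members were called higher and 8 lower, and 7 and 1 on the short arm; the numbers do not pair the samples. The short-arm median reversed to -0.0073 with GC content and length fitted. Members called lower on the short arm (1) were 0 with total counts only, 2 without a filter, 3 with DESeq2, 4 with GC content and length, 3 at a limit of 1 CPM and 0 at an adjusted p under 0.01. Those lower on the long arm (8) were 5 with total counts only and 3 at 0.01, and those higher there (157) were 66 at 0.01 and 183 with DESeq2. Higher short-arm members (9) were 5 at a limit of 20 CPM and 4 at 0.01, and the difference between arms was -0.38 at 20 CPM. Leaving out 1 library at a time gave 0.02 to 0.10 for the short-arm median, 0.41 to 0.50 for the long-arm median and -0.46 to -0.34 for their difference. It gave 88 to 183 higher and 4 to 10 lower on the long arm, and 6 to 10 and 0 to 4 on the short arm. With GC content and length fitted, the bins at 48 to 60, 60 to 70, 80 to 90, 110 to 120 and 160 to 170 Mb had medians of 0.24, 0.22, 0.23, 0.39 and 0.35. In 5 Mb bins the parts of 48 to 60 Mb had 0.16 and 0.55; one part each of the bins from 80, 90, 100, 110, 120, 140 and 160 Mb had 0.52, 0.60, 0.16, 0.94, 0.43, 0.62 and 0.36. Without 1 library the bin from 80 to 90 Mb (0.38) ran from 0.40 to 0.50, the highest without restored-labelled replicate 2. The cause of these changes was not tested. Among the alternative values of single named genes, 953 kept the same outcome, called or not called, 64 lost a call, 37 gained one and 0 reversed a call. Fold changes of some genes that were not called changed sign, such as that of RPS14, which ran from -0.11 to 0.37. At the depths here, 3 counts are at most 0.267 CPM, well under the member limit.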
